A study of Mus musculus with 13 samples.

Results

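Fuel metabolism genes known as targets of the glucocorticoid receptor (GR) were followed through 7 lists of GR peaks from mouse embryonic fibroblasts. The 8 genes were Pdk4, Pdk1, Pdk2, Acsl1, Angptl4, Cpt1a, Ppargc1a and Pnpla2, out of 21900 protein-coding genes in the gene table used. They were taken by name, as the symbol that the authors' annotation gives to each peak. In all, 5 of the 8 had a peak in at least 1 list, and 11 of the 26052 peaks of all lists were assigned to them. Pdk2, Ppargc1a and Pnpla2 had none.

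Every library was a chromatin immunoprecipitation (ChIP-seq) with 1 commercial GR antibody, on fibroblasts from male C57BL/6 embryos of day 13.5 cultured for 7 days, with head and inner organs removed beforehand. All cells had received 1 µM dexamethasone (Dex, a synthetic glucocorticoid that activates GR) for 16 h, so no list shows cells without hormone. Under Dex with lipopolysaccharide (LPS, the bacterial endotoxin; labelled as 3 h at 100 ng/µl) there were 3 libraries with genotype GR wt / wt, 4 with GR Zn / Zn and 2 with GRKO/KO. Under Dex alone there were 2 GR wt / wt and 2 GR Zn / Zn libraries. GR Zn / Zn cells carry a mutated zinc finger in the DNA-binding domain of the receptor, and GRKO/KO cells lack the receptor gene. They are called mutant and knockout here. The cells are mixed embryonic fibroblasts and not liver, muscle or fat, where these genes are best known.

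Each Dex+LPS genotype comes as merged peaks, sorted by the authors into those called in the wild type alone (wild-type-specific), in the mutant alone (mutant-specific) or in both (shared). Peaks of knockout cells had been removed. The 3 merged lists carry no spread between libraries and no test across samples could be run on them. They held 18953 wild-type-specific, 2187 mutant-specific and 3533 shared peaks of 200 bp, from 3 wild-type and 4 mutant libraries. Each Dex library had its own list, with 412 and 854 peaks for wild-type cells and 53 and 60 for mutant cells. No list gives a height or a read count, so the depth is unknown and a missing peak shows only that none was called. Peaks give no expression level, so they check neither the genotype nor the cell type. Of 10 fibroblast marker genes, all 10 had a Dex+LPS peak, against 1 of 6 adipocyte, 2 of 6 muscle and 0 of 6 hepatocyte markers. Of all protein-coding genes, 34.4% had one. Of 6 macrophage markers, 2 had mutant-specific and none had wild-type peaks. Mutant-specific without wild-type peaks were found at 1.39% of all protein-coding genes. With 6 genes a list, these counts do not show which cells were present. Any part of macrophages in the mutant-specific peaks described here was not tested.

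The 8 genes act at successive steps of the switch from glucose to fat as fuel. Pyruvate dehydrogenase kinases (Pdk1, Pdk2 and Pdk4) switch off the enzyme complex that feeds pyruvate into the citric acid cycle. Pnpla2 encodes the lipase that starts triglyceride breakdown inside cells, and Angptl4 a secreted inhibitor of lipoprotein lipase. Acsl1 activates long-chain fatty acids, Cpt1a controls their entry into mitochondria, and Ppargc1a encodes PGC-1alpha, a coactivator of oxidative metabolism. In liver, fat and muscle, glucocorticoids raise several of them during fasting.

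Of the genes with a promoter window, Pdk1 alone had a peak in it. RefSeq promoter windows, which run from 250 bases before a gene start to 50 after it (build GRCm38.p6), were matched for 7 of the 8 genes, all but Angptl4. A wild-type-specific peak covered 32 bases of the first Pdk1 window (chr2:71872974-71873273, plus strand). Of the 27025 genes in that promoter table, 3.7% had a wild-type-specific peak in a window; for shared peaks this was 1.14% and for mutant-specific peaks 0.636%. The sequence is shown because it holds the peak nearest to any of the 8 starts. Capitals mark the bases under the peak.
Pdk1, first start: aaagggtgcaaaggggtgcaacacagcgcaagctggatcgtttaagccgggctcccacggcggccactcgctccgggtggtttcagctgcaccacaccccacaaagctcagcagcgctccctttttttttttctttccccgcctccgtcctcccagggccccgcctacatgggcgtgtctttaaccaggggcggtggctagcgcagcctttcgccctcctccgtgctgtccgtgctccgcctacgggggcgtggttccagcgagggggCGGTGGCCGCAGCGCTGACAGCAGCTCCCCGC
The second Pdk1 window (chr2:71874654-71874953, plus strand) lay between the first and second peak of the gene and held none itself. It is shown because it was the only one of the 10 windows of these genes with the receptor hexamer AGAACA, present in 19.0% of 32851 windows. Capitals mark its 2 copies, each read as TGTTCT, with first bases at -153 and -138 from this start.
Pdk1, second start: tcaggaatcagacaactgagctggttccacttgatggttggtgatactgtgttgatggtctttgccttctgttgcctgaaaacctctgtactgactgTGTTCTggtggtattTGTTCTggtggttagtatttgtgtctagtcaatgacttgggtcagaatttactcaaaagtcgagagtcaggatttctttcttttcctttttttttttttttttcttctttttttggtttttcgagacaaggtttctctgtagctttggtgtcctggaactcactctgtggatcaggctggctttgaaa
The Pdk4 window (chr6:5496229-5496528, minus strand) is shown because the bound site of that gene lay far from it. It held neither a peak nor any of the 6 motifs searched, so no base is in capitals.
Pdk4: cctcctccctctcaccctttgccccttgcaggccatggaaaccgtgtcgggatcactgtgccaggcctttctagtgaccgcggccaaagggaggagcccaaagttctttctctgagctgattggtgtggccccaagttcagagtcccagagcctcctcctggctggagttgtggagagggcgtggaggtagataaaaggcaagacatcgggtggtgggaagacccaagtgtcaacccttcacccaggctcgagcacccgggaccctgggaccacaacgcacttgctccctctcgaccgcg
The Cpt1a window (chr19:3323051-3323350, plus strand) had no peak either. It is shown because it was the only one with AGGTCA, a hexamer of PPAR and other nuclear receptors that is present in 16.3% of all windows. Capitals mark this hexamer, read as TGACCT from base -94, and the TEAD motif GGAATG from base -152.
Cpt1a: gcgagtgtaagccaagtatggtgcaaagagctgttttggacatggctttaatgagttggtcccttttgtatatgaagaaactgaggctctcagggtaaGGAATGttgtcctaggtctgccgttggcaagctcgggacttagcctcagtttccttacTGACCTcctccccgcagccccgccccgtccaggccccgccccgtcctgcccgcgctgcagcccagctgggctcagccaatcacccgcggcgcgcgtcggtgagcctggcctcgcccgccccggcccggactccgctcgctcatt
GGAATG (14.7% of all windows) was also found in windows of Acsl1 and Pdk2. ACANNNTGT (a relaxed receptor palindrome, 6.85%), TGANTCA (AP-1, 7.81%) and the NF-kB pattern searched (5.56%) were found in none of these 10 windows. The NF-kB pattern required thymines just before its closing cytosines, so NF-kB sites with other bases there were not counted. The Pnpla2 window has a stretch that differs from the pattern only in having cytosines there. The absence of the pattern therefore does not show that these windows lack NF-kB sites. Both strands were searched. A missing match says only that these letters are not in the window.

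Under Dex+LPS the pyruvate dehydrogenase kinases were bound in different classes. The 3 peaks of Pdk1 (chr2:71873215-71903858, plus strand, Entrez 228026, GRCm38.p6 as all gene spans here) were all wild-type-specific. Pdk4 (chr6:5483351-5496278, minus strand, Entrez 27273) had 1 mutant-specific peak and no wild-type peak assigned to it, and Pdk2 had none. The first Pdk1 peak (chr2:71873242-71873441) was centred 118 bp inside the gene, the second (chr2:71887348-71887547) 14.2 kb inside it, and the third (chr2:71904986-71905185) lay 1.13 kb past its end. These 3 peaks thus run from the start to just beyond the end of a gene of 30.6 kb. Another wild-type-specific peak, 35.3 kb upstream, was assigned to the integrin gene Itga6, inside which it lay. With 4 wild-type-specific peaks within 50 kb of its start, Pdk1 stood above the median of 1 peak over 19069 protein-coding genes with a start, of which 6.38% had 4 or more. Its rank was lower in other windows. Within 10 kb Pdk1 had 1 such peak, and 20.9% of genes had 1 or more. Within 100 kb it had 4, and 20.7% of genes had 4 or more.

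The Pdk4 site was called in cells of both genotypes, under different treatments. The mutant-specific Dex+LPS peak (chr6:5478067-5478266) lay 5.08 kb past the gene end and 18.1 kb from its start. The peak of wild-type Dex library 2 (chr6:5478035-5478296) was 262 bp wide and contained all 200 bases of it. The centres were 1 bp apart. Wild-type Dex library 1 and both mutant Dex libraries had no peak there. So the site was called in the merged mutant list under Dex+LPS and in 1 of 2 wild-type libraries under Dex, and in no wild-type list under Dex+LPS. Most of the 854 peaks of wild-type Dex library 2 were likewise absent from the other Dex libraries. Of them, 21.3% overlapped a peak of wild-type Dex library 1, and 4.57% and 3.98% one of mutant Dex libraries 1 and 2.

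**Figure D1:**
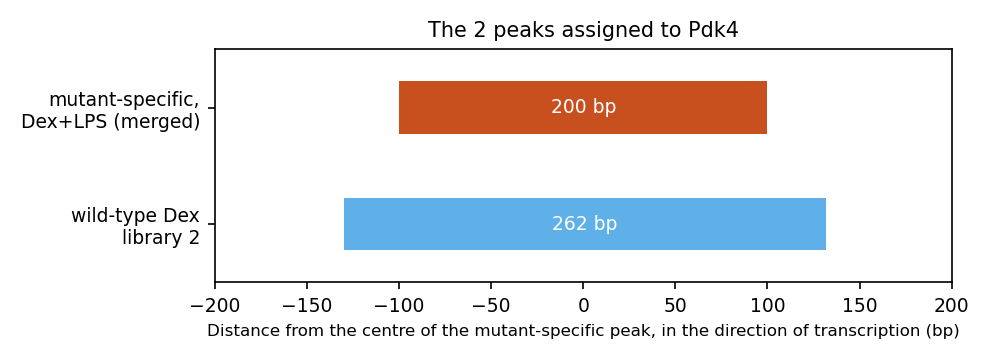
The 2 peaks assigned to Pdk4, drawn by width along the direction of transcription (x axis, bp from the centre of the mutant-specific peak). The 262 bp peak of wild-type Dex library 2 extends past the 200 bp mutant-specific Dex+LPS peak on both sides.

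Such sites were few. Of the 2187 mutant-specific peaks, 44 (2.01%) overlapped a peak of either wild-type Dex library by at least 1 bp, at 41 genes. None of the 44 overlapped a mutant Dex peak, and neither did any other of the 2187. Chromosomes 10 to 14 had 37 of the 44. They also held 68.2% and 73.9% of the peaks of wild-type Dex libraries 1 and 2, against 39.9% of mutant-specific Dex+LPS peaks. Outside them the overlap was 7 of 1315 peaks (0.532%), 1 of which was the Pdk4 site. Seen from wild-type Dex library 2, 31 of 854 peaks (3.63%) overlapped a mutant-specific, 83 (9.72%) a shared and 91 (10.7%) a wild-type-specific Dex+LPS peak. In that library 29.0% of the peaks were as narrow as the Pdk4 peak or narrower.

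Wild-type peaks did lie in the Pdk4 neighbourhood under Dex+LPS, but farther out. Between 40.4 and 56.9 kb from the Pdk4 start, on the side of the mutant-specific peak, stood 4 wild-type-specific peaks that the authors' annotation gave to Asb4. By nearest gene start, 2 of these 4 would go to Pdk4. On the other side of Pdk4 the next Dex+LPS peak was 481 kb away.

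Pdk2, the third kinase (chr11:95026258-95041371, minus strand, Entrez 18604), had no peak in any list and none inside its 15.1 kb. The nearest were wild-type-specific and flanked it at a distance, 33.0 kb past its end in Ppp1r9b and 44.3 kb beyond its start near the integrin gene Itga3. The nearest shared and mutant-specific peaks, 108 and 86.8 kb from its start, were assigned to the collagen gene Col1a1.

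**Figure D2:**
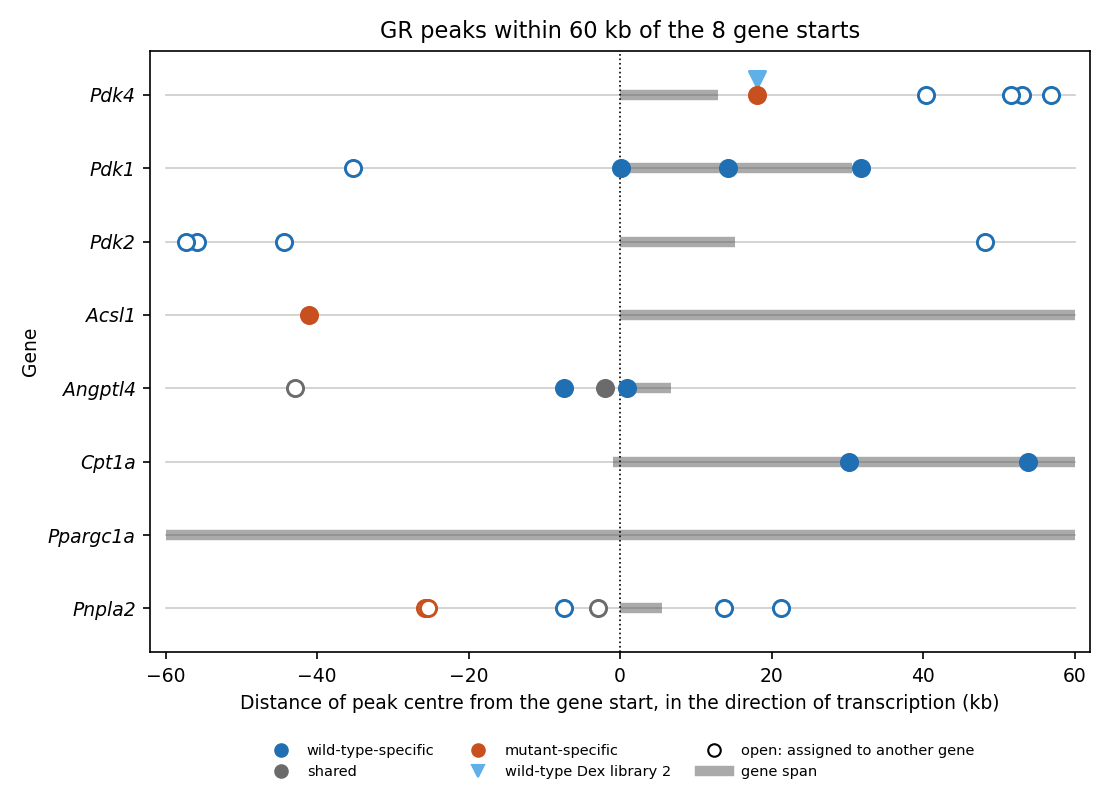
Position of every peak within 60 kb of the 8 gene starts (x axis, kb from the start in the direction of transcription; 1 row per gene; grey bar, span of the gene in the gene table). Circles are Dex+LPS peaks by class, the triangle is the peak of wild-type Dex library 2, and open symbols were assigned to another gene. Pnpla2 has 6 open circles and no filled one, and Ppargc1a has none of either kind.

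The lipase inhibitor gene Angptl4 had peaks assigned, and the lipase gene Pnpla2 had them nearby. Angptl4 (chr17:33774900-33781575, minus strand, Entrez 57875) had 3 peaks close to its start, of which 1 was shared. That peak (chr17:33783431-33783630), 1955 bp upstream, was the only shared peak that the authors' annotation assigned to any of the 8 genes. By that assignment it was the only site called in both genotypes under Dex+LPS. The wild-type-specific peaks lay on either side of it, 905 bp inside the gene (chr17:33780571-33780770) and 7.42 kb upstream (chr17:33788898-33789097). A second shared peak, 42.9 kb upstream, overlapped the start of the ribosomal protein gene Rps28. With these, Angptl4 had 2 shared peaks within 50 kb, and 4.12% of genes had 2 or more. Within 10 kb it had 1 (5.49% of genes had 1 or more) and within 100 kb 2 (9.16% had 2 or more).

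Pnpla2 (chr7:141455188-141460743, plus strand, Entrez 66853) had no assigned peak, yet 6 Dex+LPS peaks were centred within 50 kb of its start. A shared peak (chr7:141452137-141452336) lay 2.95 kb upstream and was assigned to Rplp2, a ribosomal protein gene whose end it followed. A wild-type-specific peak 7.44 kb upstream overlapped the start of Rplp2. Others were inside Cd151 (13.8 kb) and Tspan4 (21.3 kb), both tetraspanin genes. The remaining 2 were mutant-specific, 25.4 and 25.7 kb upstream, at Slc25a22 and at the start of Cend1. Of all genes, 4.89% had 6 or more Dex+LPS peaks in such a window. Pnpla2 had 2 within 10 kb, where 8.57% of genes had 2 or more, and 7 within 100 kb, where 11.3% had 7 or more. By nearest start the shared peak belongs to Pnpla2, and the gene density here leaves the assignment uncertain.

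The fatty acid oxidation genes had few peaks, none of them shared. Cpt1a (chr19:3322326-3385735, plus strand, Entrez 12894) had 2 wild-type-specific peaks, both inside the gene, 30.3 kb (chr19:3353483-3353682) and 53.8 kb (chr19:3377012-3377211) from its start. The second is nearer to the start of Tesmin than to that of Cpt1a. No other Dex+LPS peak lay within 190 kb of the gene on either side. Acsl1 (chr8:46471037-46536051, plus strand, Entrez 14081) had a single mutant-specific peak, 41.0 kb upstream of its start (chr8:46429932-46430131), and no wild-type peak within 50 kb. Its nearest wild-type-specific peak, assigned to Primpol, was 143 kb from its start, where the median over all genes was 48.7 kb. From the end of Acsl1 that peak was 77.4 kb away. Unlike the Pdk4 site, the Acsl1 site was called in no Dex library.

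Ppargc1a (chr5:51454249-52115853, minus strand, Entrez 19017) stood in a stretch of chromosome 5 without peaks. Between the flanking Dex+LPS peaks, assigned to Mir8117 and Dhx15, there were 1397 kb with no peak of any of the 7 lists. The gene itself spans 662 kb in the gene table, of which 548 kb lie upstream of the start used here. From the start used, the nearest peak was 622 kb away, and 5.25% of genes were as far or farther from one. From the upstream end of the span it was 74.0 kb.

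Distance to the nearest peak of each class ordered the genes differently. For wild-type-specific peaks Pdk1 (0.117 kb) was nearest, then Angptl4 (0.904 kb) and Pnpla2 (7.44 kb), with Acsl1 (143 kb) and Ppargc1a (622 kb) farthest. For mutant-specific peaks Pdk4 (18.1 kb) led, then Pnpla2 (25.4 kb), Acsl1 (41.0 kb), Pdk2 (86.8 kb), Angptl4 (128 kb) and Pdk1 (174 kb). These 6 were all nearer than the lower quartile over all genes, 175 kb, with Cpt1a (253 kb) and Ppargc1a (818 kb) beyond it. For shared peaks Angptl4 (1.96 kb) and Pnpla2 (2.95 kb) were near, and Ppargc1a (779 kb), Pdk4 (990 kb) and Cpt1a (1194 kb) were beyond the upper quartile of 667 kb.

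**Figure D3:**
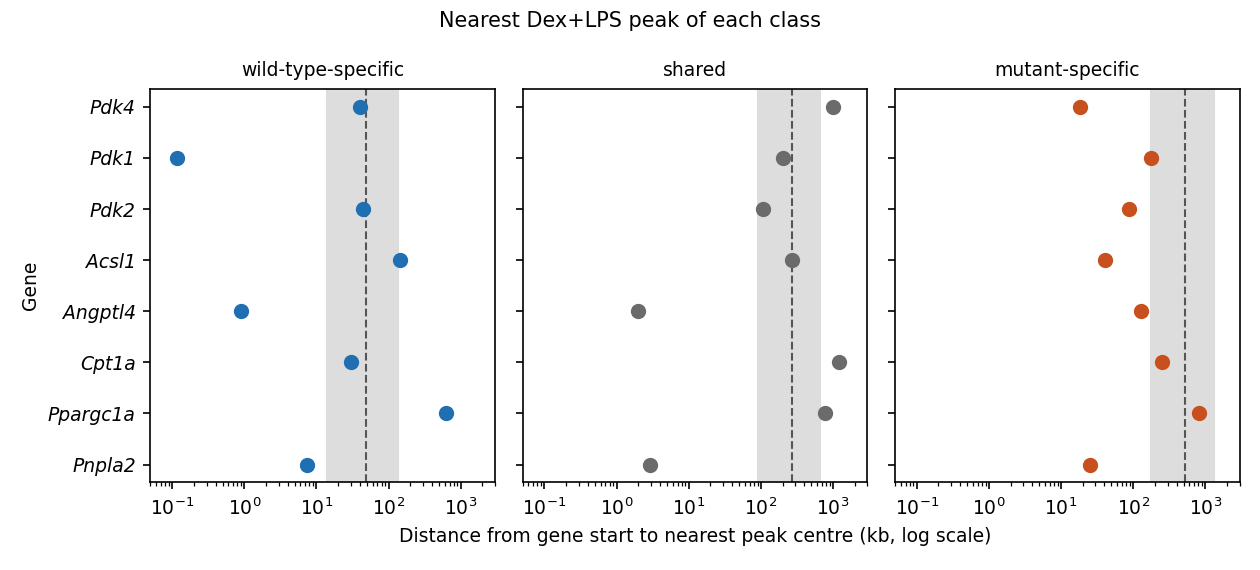
Distance from each gene start to the nearest Dex+LPS peak centre of each class (x axis, kb, log scale; 1 row per gene; dashed line and grey band, median and interquartile range over 19069 protein-coding genes for wild-type-specific peaks and 18850 for the other classes). Pdk1, Angptl4 and Pnpla2 lie left of the band for wild-type-specific peaks, and Angptl4 and Pnpla2 for shared peaks; for mutant-specific peaks all but Cpt1a and Ppargc1a lie left of it.

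Counted over the 8 genes, wild-type-specific peaks were assigned to 3 (30.6% of all protein-coding genes), mutant-specific peaks to 2 (5.36%) and a shared peak to 1 (9.37%). A wild-type peak of either class was present at 3 of 8 genes (33% of all genes) and a mutant peak at 3 of 8 (12.6%), and 5 of 8 had any Dex+LPS peak (34.4%). By the authors' assignment, only Pdk4 and Acsl1 had mutant-specific and no wild-type peaks, a combination found at 1.39% of all genes. It depends on the assignment: by nearest gene start Pdk4 also had 2 wild-type-specific peaks and Acsl1 alone kept the combination, and counting peaks in the gene or within 10 kb of its start, neither had a mutant-specific peak. Wild-type peaks without mutant peaks were found at Pdk1 and Cpt1a (21.8% of all genes). By position, whatever the assigned gene, 7 of 8 had a Dex+LPS peak within 50 kb of the start (55.8% of genes). Wild-type-specific peaks lay there at 6 (50.6%), mutant-specific peaks at 3 (10.1%) and shared peaks at 2 (15.7%). With 8 genes, a difference of 1 gene moves each of these shares by 12.5 points.

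Of the 8 wild-type Dex+LPS peaks at these genes, 1 was shared, 12.5% (exact Clopper-Pearson 95% interval 0.316 to 52.7%, counting error only), against 15.7% of all 22486 wild-type peaks. Of the 3 mutant peaks, 1 was shared, 33.3% (0.84 to 90.6%), against 61.8% of 5720. Both intervals cover the value for all peaks. Within 5 kb of the start lay 3 of the 10 Dex+LPS peaks, at Pdk1 and Angptl4. Of these 3, 2 were wild-type-specific, 1 was shared and none was mutant-specific. Over the whole lists, 17.1% of wild-type-specific peaks, 776 of the 3533 shared peaks and 28.9% of mutant-specific peaks were as near. Inside the gene lay 5 of the 7 wild-type-specific peaks and neither mutant-specific peak, where the lists had 47.6% and 46.7%. Whether a peak inside a gene is in an exon or an intron was not analysed here.

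**Figure D4:**
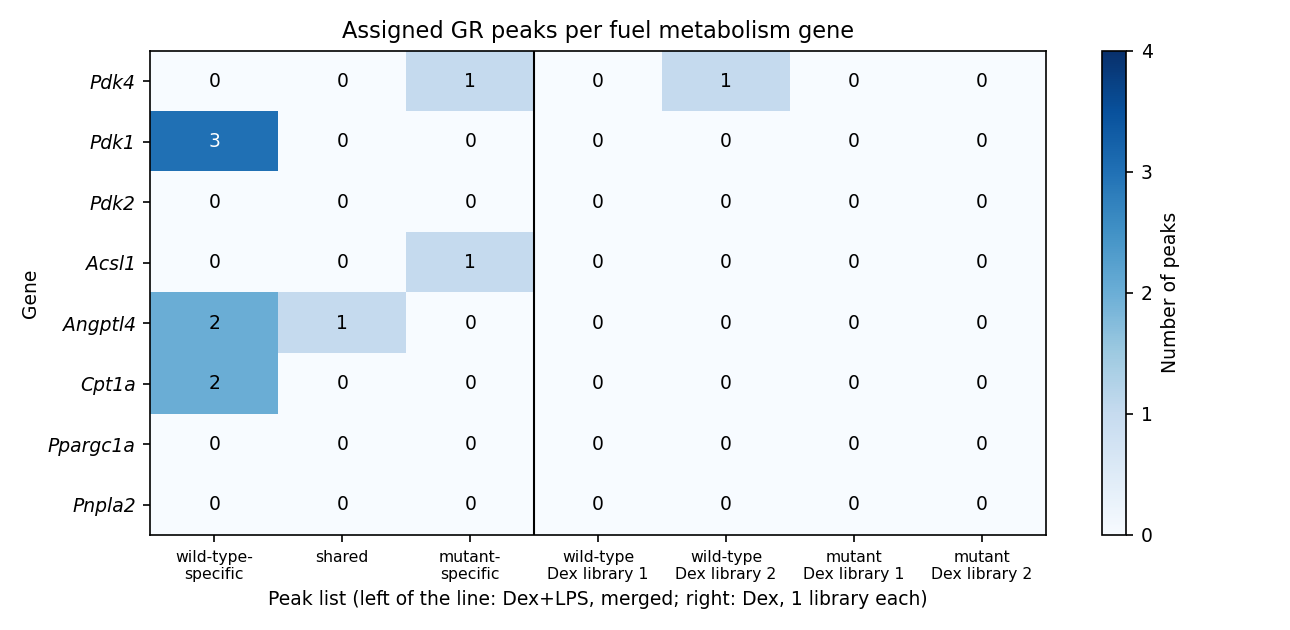
Number of GR peaks assigned to each of the 8 genes (rows) in each of the 7 lists (columns; colour and digit give the count). Dex+LPS columns hold 7, 1 and 2 peaks in all, and the 4 Dex columns hold 1 peak together, at Pdk4 in wild-type library 2.

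Under Dex alone these genes were almost without peaks. Wild-type library 1 had 0 and library 2 had 1 of the 8 genes bound, and mutant libraries 1 and 2 had 0 and 0. The values of the 2 genotypes overlap, as 1 wild-type library was also at 0. The mean was 0.5 ± 0.707 (SD, n = 2) for the wild type and 0 for the mutant, a difference of 0.5 genes (two-sided exact permutation test, p = 1, where the smallest p that 2 against 2 libraries allow is 0.33). Over all protein-coding genes, 1.09% and 1.86% had a peak in the wild-type libraries and 0.142% and 0.183% in the mutant libraries (2.16% in either wild-type and 0.237% in either mutant library). Within 50 kb of a start, by position, the counts were again 0, 1, 0 and 0 genes, where all genes gave 0.949%, 1.53%, 0.142% and 0.205%. The single bound gene rests on wild-type library 2, without which no gene of the 8 has a Dex peak. The labels do not state separate cultures for the libraries, so p measures only the spread between libraries, which may be technical.

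Pdk4 and Angptl4 were the only ones of the 8 with peaks in 2 of the 7 lists. Among the 8717 genes with a peak in any list, 4 others had exactly the counts of Pdk4 over the 7 lists and 190 those of Angptl4.

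Lists of related genes, which include the 8, had more genes at wild-type-specific than at shared or mutant-specific peaks, as all genes did. The 5 lists held 123 genes, with wild-type-specific peaks at 53 (43.1%, against 30.6% of all protein-coding genes), mutant-specific peaks at 7 (5.69%, against 5.36%) and shared peaks at 17 (13.8%, against 9.37%). No test of these counts was run. By the authors' assignment, 2 of the 123, Pdk4 and Acsl1, had mutant-specific and no wild-type peaks, where the share over all protein-coding genes was 1.39%. For Pdk4 this did not hold by nearest gene start.

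Among 15 genes of the pyruvate dehydrogenase complex and its regulators, 6 had wild-type-specific, 1 mutant-specific and 2 shared peaks. Over all protein-coding genes the shares with such peaks were 30.6%, 5.36% and 9.37% in that order. Pdhx, a structural subunit, had 4 wild-type-specific and 1 shared peak, and Pcx, pyruvate carboxylase, had 1 and 2. Pdha1, the catalytic subunit that the kinases phosphorylate, had a wild-type-specific peak over its start. Pdk3, the remaining kinase gene, had 1 wild-type-specific peak 69.1 kb away, and the phosphatase gene Pdp1, which opposes the kinases, had 1 downstream.

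Of 26 genes of fatty acid activation and oxidation, 7 (26.9%) carried wild-type-specific peaks, Acsl1 (3.85%) a mutant-specific one and none a shared one. Over all genes these shares were 30.6%, 5.36% and 9.37%. Cpt2, the inner membrane partner of Cpt1a, had a wild-type-specific peak 157 bp upstream of its start, and the acyl-CoA dehydrogenase gene Acadl one 101 bp upstream. Acot2, a mitochondrial thioesterase, had 2 near its start. Of the Acsl family, Acsl3 had 1 and Acsl4 2 wild-type-specific peaks, and Acsl5 and Acsl6 none. Cpt1b and Cpt1c had none.

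Of 26 genes of lipolysis and lipid handling, 9 (34.6%) carried wild-type-specific, 1 (3.85%) mutant-specific and 4 (15.4%) shared peaks, against 30.6%, 5.36% and 9.37% of all genes. Lipc, hepatic lipase, had 2 shared peaks beside 2 wild-type-specific ones, and the fatty acid transporter gene Cd36 had 3 wild-type-specific peaks inside it. Angptl8, a relative of Angptl4, and Pnpla3, a relative of Pnpla2, had no peak.

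Regulators were the list with the largest share of genes at wild-type-specific peaks. Of 23 PPAR and PGC-1 regulators, 14 (60.9%) carried wild-type-specific, 1 (4.35%) mutant-specific and 4 (17.4%) shared peaks, against 30.6%, 5.36% and 9.37% of all genes. Rxra, the common partner of PPARs, had peaks of every class, 2 wild-type-specific, 1 mutant-specific and 2 shared. The forkhead factor gene Foxo3 had 4 wild-type-specific peaks, and Pparg 3. In contrast to Ppargc1a, its relatives Ppargc1b (2 wild-type-specific and 1 shared) and Pprc1 (2 wild-type-specific, 235 and 745 bp inside the gene) were bound.

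Of 33 genes of glycolysis and glucose supply, 17 (51.5%) carried wild-type-specific, 3 (9.09%) mutant-specific and 7 (21.2%) shared peaks, against 30.6%, 5.36% and 9.37% of all genes. The hexokinase gene Hk2 had 5 wild-type-specific peaks, 1 of them over its start, and 2 shared ones. Pfkfb3, a regulator of phosphofructokinase, had 4 wild-type-specific, 1 mutant-specific and 1 shared peak, and the pyruvate kinase gene Pkm 2, 1 and 2 in that order. Pfkp, platelet-type phosphofructokinase, had most, with 6, 5 and 3, all upstream of the gene at 20.7 to 480 kb, on chromosome 13.

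**Figure D5:**
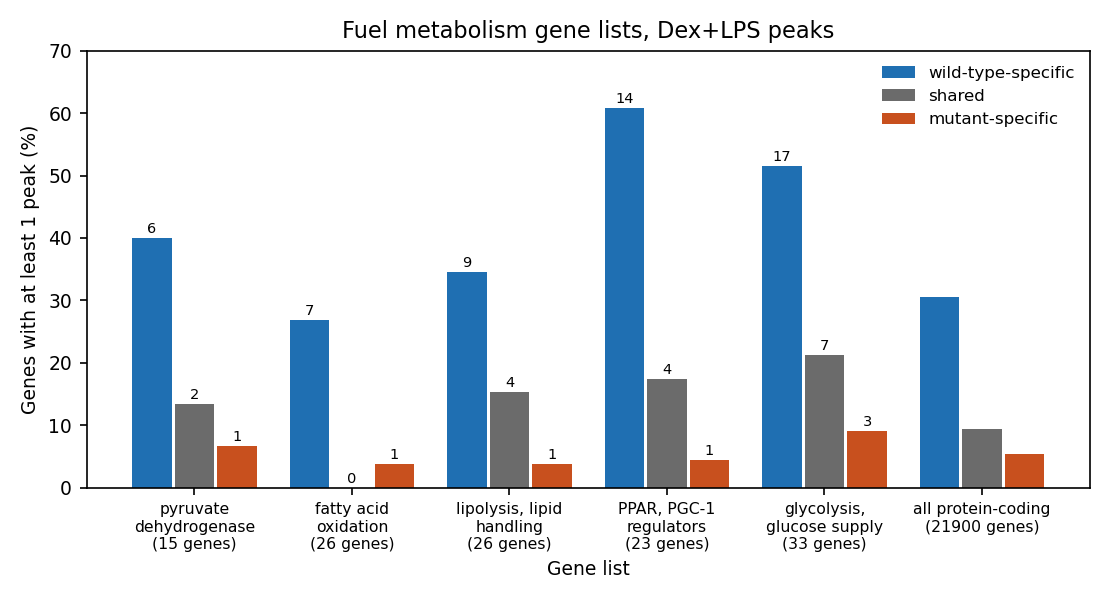
Percent of the genes of each list with at least 1 Dex+LPS peak of a class (y axis; digits above bars, number of genes), beside all 21900 protein-coding genes. Bars carry no error, as each class is 1 merged list; wild-type-specific bars range from 7 of 26 fatty acid oxidation genes to 14 of 23 regulators.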

How the data were processed

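GR ChIP-seq was done in 13 libraries of 5 groups. The deposited values are positions and distances in base pairs, without counts or scores. BWA 0.7.13, Picard 1.119, MACS2 2.1.0 and build mm10 are listed in the submitters' processing notes, with no role. Per the file names, Dex+LPS libraries were merged, peaks of knockout cells removed and the rest divided into 3 lists; each Dex library was thresholded on false discovery rate. The method of merging or annotating peaks was not given in the sources used here.

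Peaks were taken with the gene the authors' annotation assigns. Its distance runs from peak centre to gene start in all 26052 peaks. Coordinates are 1-based. Of 8725 gene identifiers, 8717 (99.9%) matched the gene table (GRCm38.p6); its 21900 protein-coding genes gave the background, and starts came from the promoter table or, failing that, the authors' annotation. The 2 kinds of list place the Pdk4 start 31 bp apart. Overlaps of 1 bp or more counted; the overlap code gave the counts of bedtools 2.31.1 on 500 simulated intervals. Intervals are exact (Clopper-Pearson, 95%). Dex libraries were compared by exact permutation. Motifs were searched in RefSeq promoter windows, chosen after seeing the data, as no genome was used here to read the peaks. Members, lists and tests were chosen with earlier results of these data known. Named were the 8 genes, their relatives (1 of which is not reported here) and up to 4 further genes per list with most Dex+LPS peaks. Tools were matplotlib 3.10.9, scipy 1.17.1, pandas 2.3.3 and numpy 2.4.6 under Python 3.11.15.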

Additional observations from a re-analysis of the deposited data

How the results depend on the processing

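Of 152 recomputed values, 130 kept their direction and stayed within the limits set (counts within 1.5 times), 22 moved and 0 reversed. Many of the 130 could not have moved. Every peak assigned to these genes lay at most 53.8 kb from its start, so a limit of 100 kb removed none. None lay on the chromosomes rich in wild-type Dex peaks, so leaving those out changed nothing either. Many other unchanged values were counts of 0 for single genes. The tally is therefore no measure of stability. With peaks given to the nearest gene start, genes with a shared peak and shared peaks rose from 1 to 2, through Pnpla2. With peaks in the gene or within 10 kb of its start, both were also 2, and genes with a mutant-specific peak and such peaks fell from 2 to 0, since the Pdk4 and Acsl1 sites lie farther out; the Dex differences were then 0. Within 50 kb of the starts there were 13 wild-type-specific and 4 mutant-specific peaks, against 4 and 0 within 10 kb and 21 wild-type-specific within 100 kb. Leaving out peaks under 300 bp made both Dex differences 0, as the Pdk4 peak is narrower. Leaving out 1 Dex library in turn gave differences of 0 to 1 for genes and for peaks, 0 without wild-type library 2, which alone holds the peak. With the replicate number as a block the difference stayed 0.5; with 2 pairs the labels and counts cannot show that the numbers pair the libraries. Overlap of 0.5 of the shorter peak, or centres within 1 kb, left the Pdk4 overlap in place. Motifs in peak sequences were not run. The unknown depth limits every absence of a peak.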

Other observations

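Ppara, the gene of the fatty acid sensor PPARalpha, had 2 of the 53 peaks of mutant Dex library 1 inside it, 63.1 and 66.2 kb from its start (chr15:85797815-85798263 and chr15:85801009-85801258). Neither overlapped a peak of a wild-type Dex library or of mutant Dex library 2. Most peaks of mutant Dex library 1 did: 62.3% and 79.2% overlapped a peak of wild-type Dex libraries 1 and 2, and 58.5% one of mutant Dex library 2. The 2 Ppara peaks thus rest on 1 library. Under Dex+LPS the gene had 1 wild-type-specific peak, 41.3 kb from its start. Ppara was chosen after its values were seen.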
